A study of Mus musculus with 12 samples.

Results

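The NF-kB subunits and feedback inhibitors are 10 genes, chosen by symbol: Nfkb1, Nfkb2, Rela, Relb, Nfkbia, Nfkbib, Nfkbie, Nfkbiz, Bcl3 and Tnfaip3. All 10 were found among the 18876 genes listed in any of 12 RNA-seq libraries, and 9 of them were listed in all 12. The libraries came from primary oligodendrocyte progenitor cells of wild-type mouse brain, a dividing cell type that matures into the myelin-forming glia of the brain. Cells were exposed for 12 h to 50 µM hemin, to 50 µM hemin with 10 ng/mL interleukin-10 (IL-10), to 50 µM hemin with 10 ng/mL IL-10 and 2.5 µM stattic, or to DMSO vehicle, with 3 libraries in each group. Hemin is a ferric heme compound. The cytokine IL-10 acts on cells mainly by way of the transcription factor STAT3, which stattic inhibits. IL-10 was given only with hemin, and stattic only with both. The labels give no age or number of animals and do not say whether replicates were separate cultures, and a p-value here measures only how far these libraries spread, which may be technical.

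NF-kB is a family of dimeric transcription factors that inhibitor proteins of the IkB family hold in the cytoplasm until upstream kinases mark those inhibitors for degradation. Freed dimers enter the nucleus and switch on inflammatory and survival genes, among them their own inhibitors, which close a negative feedback loop. Messenger RNA of the subunits and inhibitors is a partial view of this pathway, since much of its control acts on protein stability and location.

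The expected counts, which are estimated reads per gene, added up to 9404448 in the shallowest library and 10266653 in the deepest, and 15051 to 16899 genes were listed. Levels are given as TMM-scaled CPM (counts relative to library size after trimmed-mean scaling), in the order of replicates 1, 2 and 3. Changes are log2 fold changes from edgeR's quasi-likelihood test on all 12 libraries, with 95% confidence intervals (CI). A gene was called at a Benjamini-Hochberg adjusted p below 0.05 over the 13967 genes tested. Libraries differed in how level varied with transcript length. The log2 ratio of each library to the mean of the vehicle libraries was correlated with length over genes. Spearman's rho was -0.62 in hemin+IL-10+stattic replicate 3 and -0.36 in hemin replicate 1. It was -0.18 to 0.11 in the other 10, which include the vehicle libraries that form the reference. The 7 oligodendrocyte progenitor markers were listed in every group, at a summed level of 1741 to 2514 CPM in hemin, 1368 to 2274 CPM in hemin+IL-10 and 714 to 1804 CPM in hemin+IL-10+stattic libraries, against 4615 to 6500 CPM in vehicle libraries. Called lower than with vehicle were 3 of the 7 with hemin, 6 with hemin+IL-10 and 4 with hemin+IL-10+stattic, and none was called higher. Over all genes 9.15%, 8.81% and 10.2% were called lower. In bulk samples, fewer cells of a type and less RNA per cell cannot be told apart.

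RefSeq promoter sequences (build GRCm38.p6) were at hand for 7 of the 10 members, with 10 promoters in all. They were searched on both strands for the NF-kB consensus over the 250 bases before the start site, because several members are known as NF-kB targets. A match was found in 6 promoters of 4 members, Nfkb2, Nfkbia, Nfkbie and Tnfaip3, and in 7.25% of all 32851 promoters over the same length. The windows of Rela, Nfkbib and Bcl3 held none. Nfkb1, Relb and Nfkbiz are named only. The 4 windows below, 1 for each member with a match, are printed 5′ to 3′ and end at the base before the start site; capitals mark the consensus matches.
Nfkbia (chr12:55492648-55492897, minus strand): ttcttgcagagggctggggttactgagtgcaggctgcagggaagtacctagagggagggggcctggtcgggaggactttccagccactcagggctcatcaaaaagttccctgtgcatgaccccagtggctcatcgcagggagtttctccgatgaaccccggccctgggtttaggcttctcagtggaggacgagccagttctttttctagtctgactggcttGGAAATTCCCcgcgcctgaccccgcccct
Tnfaip3, first promoter (chr10:19015411-19015660, minus strand): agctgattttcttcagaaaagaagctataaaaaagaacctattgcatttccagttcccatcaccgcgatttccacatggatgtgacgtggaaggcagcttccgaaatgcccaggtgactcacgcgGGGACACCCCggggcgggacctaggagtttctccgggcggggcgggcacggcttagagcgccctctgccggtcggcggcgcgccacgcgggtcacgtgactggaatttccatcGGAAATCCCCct
Nfkb2, first promoter (chr19:46304487-46304736, plus strand): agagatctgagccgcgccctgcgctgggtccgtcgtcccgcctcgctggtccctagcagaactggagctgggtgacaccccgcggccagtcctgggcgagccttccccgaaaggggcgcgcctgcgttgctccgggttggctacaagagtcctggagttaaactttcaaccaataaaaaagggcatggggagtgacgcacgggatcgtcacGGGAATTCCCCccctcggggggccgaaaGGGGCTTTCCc
Nfkbie (chr17:45555450-45555699, plus strand): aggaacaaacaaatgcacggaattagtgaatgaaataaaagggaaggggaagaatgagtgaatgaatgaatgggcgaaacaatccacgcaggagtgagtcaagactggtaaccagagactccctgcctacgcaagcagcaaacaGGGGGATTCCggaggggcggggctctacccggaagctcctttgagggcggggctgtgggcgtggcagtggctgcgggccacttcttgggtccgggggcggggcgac
The Nfkbia match lay 29 to 20 bases before the start. The Tnfaip3 promoter held a match at 125 to 116 bases, which read as a match on both strands, and a match at 12 to 3 bases. In Nfkb2, overlapping matches spanned 39 to 29 bases before the start, with another at 11 to 2 bases. The Nfkbie match lay at 106 to 97 bases. The AP-1 motif TGANTCA was found in 3 of the 10 member promoters and in 6.75% of all promoters, and the STAT motif TTCNNNGAA in 1 of the 10, the first Nfkb2 promoter, and in 7.02% of all. A match is a description of the letters and not a test of binding. As given next, 1 of the 4 members with a match, Tnfaip3, was called higher with hemin, as 11.7% of all genes tested were, while Nfkbia, Nfkb2 and Nfkbie were not called. The other members called, Nfkb1, Relb and Nfkbiz, had no promoter to search, so matches and calls cannot be compared.

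With hemin, 4 of the 9 members tested were called higher and none lower than with vehicle. These were the subunit genes Nfkb1 and Relb, the nuclear IkB protein gene Nfkbiz and the A20 gene Tnfaip3. Over all genes tested, 11.7% were called higher, 9.15% lower and 20.9% in either direction. The median log2 change was 0.80 over the 9 members and 0.03 over all genes. In 6 of the 9 members each hemin library lay above each vehicle library, a pattern seen in 25.6% of all genes. The 6 were the 4 called members with Nfkbib and Nfkbie.

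**Figure D1:**
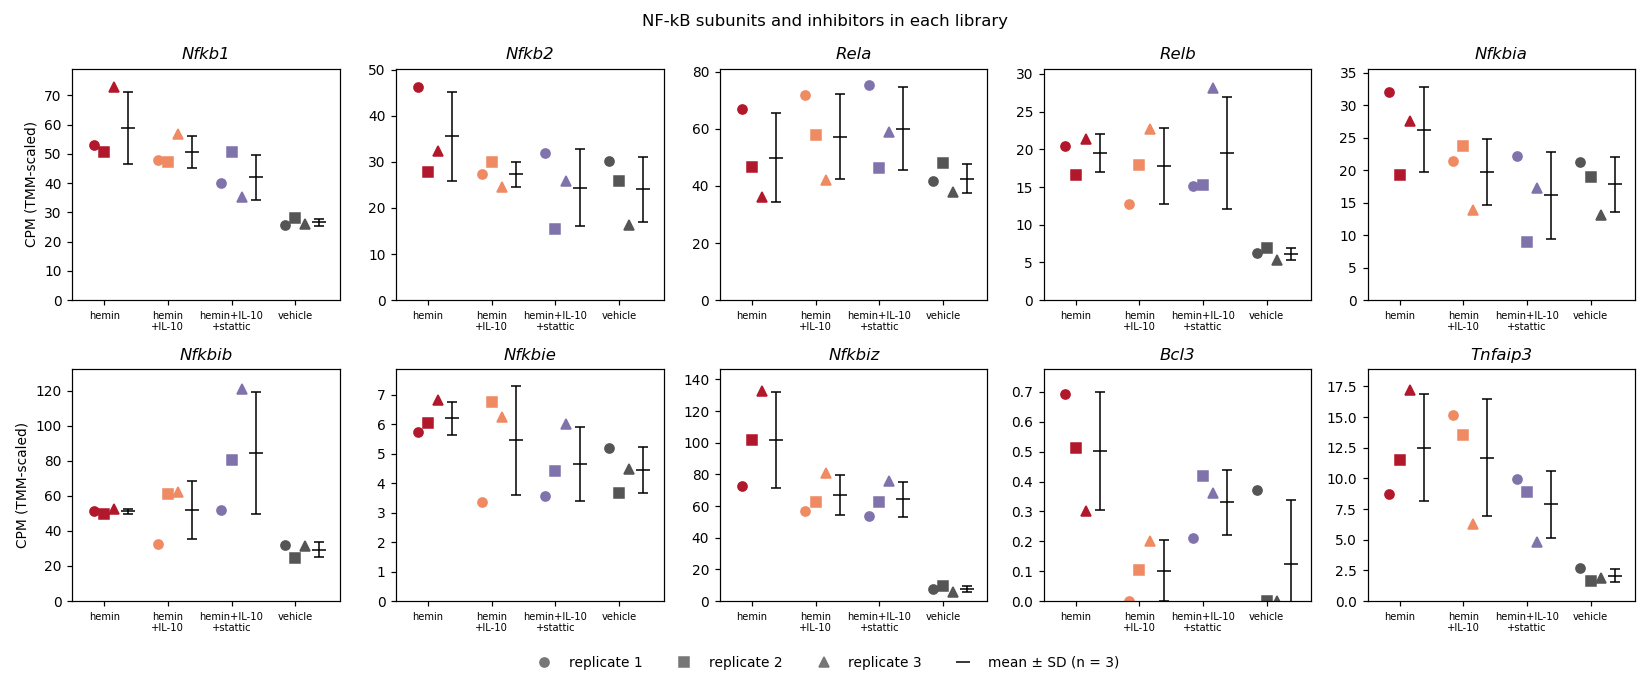
TMM-scaled CPM of the 10 members in each of the 12 libraries. Points are libraries, with the replicate number as the marker shape, and bars are the group mean and SD (n = 3). Nfkb1, Relb, Nfkbiz and Tnfaip3 lie above vehicle in all 9 hemin-treated libraries, and Bcl3 stays below 0.7 CPM throughout.

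Among the subunits, Nfkb1 encodes the p105 precursor of p50, a subunit that binds DNA but has no activation domain of its own. Nfkb1 had 53, 50.5 and 73 CPM in hemin libraries, 47.8, 47.1 and 56.9 CPM in hemin+IL-10 libraries and 40.2, 50.5 and 35.4 CPM in hemin+IL-10+stattic libraries, against 25.7, 28 and 26.2 CPM in vehicle libraries. All 9 libraries with hemin lay above all 3 vehicle libraries, whose values spanned a narrow range. Mean levels were 58.9 ± 12.3 CPM with hemin and 26.6 ± 1.19 CPM with vehicle (SD, n = 3 each). The log2 change with hemin was 1.14 (SE 0.21, CI 0.68 to 1.61, adjusted p = 0.00456), a 2.21-fold rise.

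Relb encodes the partner of p52 in the non-canonical arm of the pathway and is itself a known NF-kB target. Relb had 20.4, 16.6 and 21.3 CPM in hemin libraries, 12.7, 17.9 and 22.7 CPM in hemin+IL-10 libraries and 15.1, 15.3 and 28.1 CPM in hemin+IL-10+stattic libraries, against 6.22, 6.85 and 5.33 CPM in vehicle libraries. Groups with hemin did not overlap vehicle, and the highest value was in hemin+IL-10+stattic replicate 3, the library with the steepest length trend. The log2 change with hemin was 1.66 (SE 0.32, CI 0.97 to 2.35, adjusted p = 0.00491).

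The other two subunit genes were not called in any comparison. Rela, which encodes p65, the main activating subunit of the canonical pathway, had 66.9, 46.7 and 36.2 CPM in hemin libraries, 72, 57.8 and 42.1 CPM in hemin+IL-10 libraries and 75.2, 46.2 and 58.9 CPM in hemin+IL-10+stattic libraries, against 41.8, 48.2 and 37.9 CPM in vehicle libraries. The hemin libraries fell on both sides of the vehicle range, and the log2 change was 0.23 (CI -0.38 to 0.84, adjusted p = 0.597). Nfkb2, which encodes the p100 precursor of p52, had 46.3, 27.9 and 32.3 CPM in hemin libraries, 27.3, 30 and 24.5 CPM in hemin+IL-10 libraries and 31.9, 15.5 and 25.9 CPM in hemin+IL-10+stattic libraries, against 30.2, 25.9 and 16.4 CPM in vehicle libraries. Hemin replicate 1 was the highest of the 12 and the groups overlapped, with a log2 change of 0.56 with hemin (CI -0.12 to 1.24, adjusted p = 0.225), or 0.31 without hemin replicate 1 and 0.35 without vehicle replicate 3. The subunit genes thus moved unequally, with Nfkb1 and Relb called and Rela and Nfkb2 at intervals that include 0; the differences between genes were not tested.

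Nfkbiz encodes IkBζ, a nuclear member of the IkB family that, with p50, drives a secondary set of inflammatory genes. It had the largest change of the members, with 72.6, 102 and 133 CPM in hemin libraries, 57, 62.4 and 81.1 CPM in hemin+IL-10 libraries and 54, 62.5 and 76.1 CPM in hemin+IL-10+stattic libraries, against 7.52, 9.32 and 5.71 CPM in vehicle libraries. The lowest library with hemin, hemin+IL-10+stattic replicate 1, was far above the highest vehicle library. Means were 102 ± 30.3 CPM with hemin and 7.52 ± 1.8 CPM with vehicle (SD, n = 3 each), a 13.6-fold rise (log2 3.77, SE 0.30, CI 3.11 to 4.42, adjusted p = 3.68e-05). Of the 13967 genes tested, 386 had a larger log2 change with hemin.

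Tnfaip3 encodes A20, a ubiquitin-editing enzyme that shuts off signalling from TNF and Toll-like receptors to NF-kB. Tnfaip3 had 8.73, 11.5 and 17.2 CPM in hemin libraries, 15.2, 13.5 and 6.26 CPM in hemin+IL-10 libraries and 9.96, 8.9 and 4.8 CPM in hemin+IL-10+stattic libraries, against 2.69, 1.64 and 1.9 CPM in vehicle libraries. All libraries with hemin lay above vehicle, and the lowest of them was hemin+IL-10+stattic replicate 3. The log2 change with hemin was 2.58 (SE 0.45, CI 1.61 to 3.55, adjusted p = 0.00315), a 5.97-fold rise.

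Nfkbia encodes IkBα, the best known feedback inhibitor, which is resynthesised after NF-kB activation and carries the dimers back out of the nucleus. Nfkbia had 32, 19.2 and 27.5 CPM in hemin libraries, 21.4, 23.7 and 13.9 CPM in hemin+IL-10 libraries and 22.1, 9.01 and 17.2 CPM in hemin+IL-10+stattic libraries, against 21.2, 18.9 and 13.1 CPM in vehicle libraries. The groups overlapped in each comparison, and hemin+IL-10+stattic replicate 2 was the lowest of the 12. The log2 change with hemin was 0.56 (CI -0.20 to 1.33, adjusted p = 0.275). With a mean length of 1592 bases, Nfkbia was the shortest member after Nfkbib. Over the 11 alternative fits other than leaving out 1 library, its change with hemin ran from 0.06 to 0.57. With hemin+IL-10+stattic against vehicle that range was -0.76 to -0.14, and no such fit called it in either comparison.

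Nfkbib, which encodes IkBβ, had 51.2, 49.6 and 52.6 CPM in hemin libraries, 32.6, 60.8 and 62.3 CPM in hemin+IL-10 libraries and 51.7, 80.5 and 121 CPM in hemin+IL-10+stattic libraries, against 32, 24.5 and 31.5 CPM in vehicle libraries. Each hemin library lay above each vehicle library, but the change with hemin was not called (log2 0.80, CI 0.12 to 1.49, adjusted p = 0.0894). It was called with only the hemin and vehicle libraries in the fit (log2 0.79, adjusted p = 0.0103) and when hemin+IL-10+stattic replicate 1 or 3 was left out (adjusted p = 0.0494 and 0.038), and fell to 0.29 with a correction for transcript length (adjusted p = 0.367). With a mean length of 1390 bases, Nfkbib was the shortest of the 10 genes, and its highest value was in hemin+IL-10+stattic replicate 3. Nfkbib also overlaps the gene Ccer2 in the RefSeq annotation, and reads of overlapping genes cannot be told apart here. Nfkbie, which encodes IkBε, had 5.75, 6.05 and 6.81 CPM in hemin libraries, 3.35, 6.74 and 6.26 CPM in hemin+IL-10 libraries and 3.56, 4.4 and 6 CPM in hemin+IL-10+stattic libraries, against 5.2, 3.66 and 4.48 CPM in vehicle libraries. Its hemin and vehicle ranges did not overlap, yet its log2 change was 0.48 with an interval that includes 0 (CI -0.28 to 1.24, adjusted p = 0.353).

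Bcl3, which encodes a nuclear IkB protein that works with p50 and p52 homodimers, was below the count filter and was not tested. It had 7, 5 and 3 counts in hemin libraries, 0, 1 and 2 in hemin+IL-10 libraries and 2, 4 and 3 in hemin+IL-10+stattic libraries, against 4, 0 and 0 in vehicle libraries. The group sums were 15 counts with hemin, 3 with hemin+IL-10 and 9 with hemin+IL-10+stattic, against 4 with vehicle, and a difference of this size could not be resolved at this depth. In the fit with no filter its log2 change with hemin was 1.89 (adjusted p = 0.244).

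The groups given IL-10, or IL-10 with stattic, on top of hemin share their vehicle libraries with the hemin comparison, so the values are set side by side and are not independent. With hemin+IL-10, 4 of 9 members were called higher than with vehicle, where 12.1% of all genes were; the median log2 change was 0.82 over the members and 0.00 over all genes. With hemin+IL-10+stattic it was 5 of 9, where 14.7% of all genes were called higher, with medians of 0.66 and 0.10. None was called lower in either comparison, where 8.81% of all genes were with hemin+IL-10 and 10.2% with hemin+IL-10+stattic. Each library of the group lay above each vehicle library for 5 members in both comparisons, against 24.9% of all genes with hemin+IL-10 and 21.5% with hemin+IL-10+stattic. The members called in all 3 comparisons with vehicle were the same 4, Nfkb1, Relb, Nfkbiz and Tnfaip3.

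**Figure D2:**
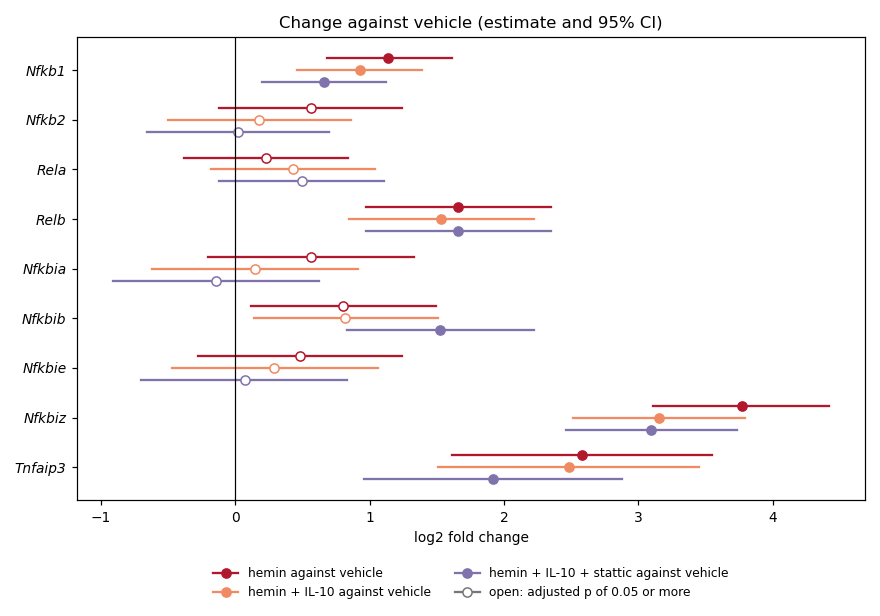
Log2 fold change of the 9 tested members against vehicle in the 3 groups with hemin. Points are estimates from edgeR, lines are 95% CI, and filled points have an adjusted p below 0.05. Nfkbiz lies farthest to the right in all 3 groups, and the Rela, Nfkb2, Nfkbia and Nfkbie lines cross 0.

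For Nfkbiz the log2 change against vehicle was 3.15 with hemin+IL-10 (CI 2.51 to 3.79, adjusted p = 8.64e-05) and 3.09 with hemin+IL-10+stattic (CI 2.46 to 3.73, adjusted p = 0.00011), beside 3.77 with hemin alone. For Tnfaip3 it was 2.48 with hemin+IL-10 (CI 1.51 to 3.45, adjusted p = 0.00382) and 1.92 with hemin+IL-10+stattic (CI 0.96 to 2.88, adjusted p = 0.0107). For Relb it was 1.53 with hemin+IL-10 (adjusted p = 0.00722) and 1.66 with hemin+IL-10+stattic (adjusted p = 0.0045), close to the 1.66 with hemin alone. These 3 genes were therefore called at 12 h whichever agents accompanied hemin.

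Nfkb1 was 0.93 higher on the log2 scale with hemin+IL-10 (CI 0.46 to 1.39, adjusted p = 0.012) and 0.66 higher with hemin+IL-10+stattic (CI 0.20 to 1.12, adjusted p = 0.0409). The hemin+IL-10 call was lost without vehicle replicate 1 (adjusted p = 0.0523) and by limma with a pseudocount of 1 or 0.1 (adjusted p = 0.0542 and 0.0521). The hemin+IL-10+stattic call held in 3 of the 12 fits that each left out 1 library, those without hemin replicate 3, hemin+IL-10 replicate 3 or hemin+IL-10+stattic replicate 3, and the adjusted p ranged from 0.0189 to 0.123 over the 12. It held in 6 of the 11 other alternatives and was lost with library totals, with no filter, by both limma fits and with only the groups compared in the fit (adjusted p = 0.0735 to 0.301). Nfkbib was not called with hemin+IL-10 (log2 0.82, adjusted p = 0.0822) and was called higher with hemin+IL-10+stattic (log2 1.52, SE 0.32, CI 0.83 to 2.22, adjusted p = 0.00696). Without hemin+IL-10+stattic replicate 3 this change was 1.18 (adjusted p = 0.0128), and with the correction for transcript length it was 0.83 (adjusted p = 0.025). The hemin+IL-10 change of Nfkbib was called without hemin+IL-10 replicate 1, hemin+IL-10+stattic replicate 1 or hemin+IL-10+stattic replicate 3 (adjusted p = 0.0432, 0.0455 and 0.0345). It was also called by DESeq2 (adjusted p = 0.0446), with only the groups compared in the fit (0.0451) and without both libraries of steep length trend (0.0388), and was 0.44 with the length correction (adjusted p = 0.176). Rela, Nfkb2, Nfkbia and Nfkbie, called in neither comparison, had log2 changes of 0.15 to 0.43 with hemin+IL-10 and -0.14 to 0.50 with hemin+IL-10+stattic.

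The design also asks what IL-10 adds to hemin, and what stattic changes in the presence of both. In the edgeR fit with 1 mean per group, 0 of the 13967 genes (0%) and 0 of the 9 members were called in each of the 3 comparisons among groups with hemin. At an unadjusted p below 0.05 there were 337 genes for hemin+IL-10 against hemin, 523 for hemin+IL-10+stattic against hemin+IL-10 and 481 for hemin+IL-10+stattic against hemin, and DESeq2 called 3, 0 and 1 genes. With the replicate number as a block, edgeR called 1, 0 and 1 genes, none of them a member, and 702, 847 and 742 genes had an unadjusted p below 0.05. Without the block, the genes at an unadjusted p below 0.05 were 2.41%, 3.74% and 3.44% of those tested. Members below it numbered 1, 1 and 3 of 9.

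**Figure D3:**
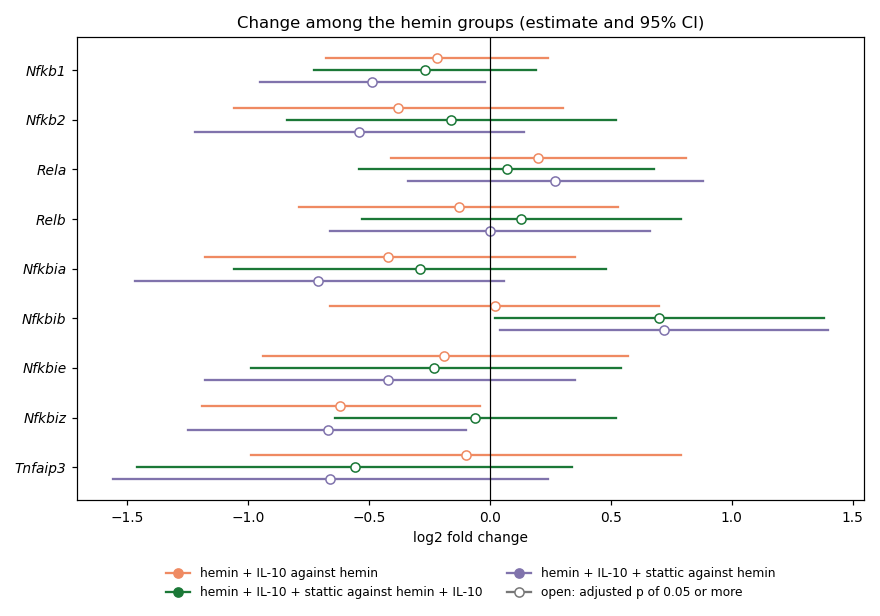
Log2 fold change of the 9 tested members among the 3 groups with hemin, with 95% CI from edgeR. All points are open because no adjusted p was below 0.05. The intervals of Nfkbiz for hemin+IL-10 against hemin and of Nfkb1 and Nfkbiz for hemin+IL-10+stattic against hemin lie below 0, and those of Nfkbib for hemin+IL-10+stattic against both other groups lie above 0.

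For hemin+IL-10 against hemin, the member log2 changes ran from -0.62 to 0.20 with a median of -0.19, against -0.01 over all genes. Nfkbiz had the lowest, at 66.8 ± 12.6 CPM with hemin+IL-10 and 102 ± 30.3 CPM with hemin (SD, n = 3 each; log2 -0.62, CI -1.19 to -0.04, unadjusted p = 0.0386, adjusted p = 0.999). The ranges overlapped, since hemin+IL-10 replicate 3 at 81.1 CPM was above hemin replicate 1 at 72.6 CPM. In pairs of same-numbered libraries, Nfkbiz, Nfkb1 and Bcl3 were lower with hemin+IL-10 in 3 of 3, and Rela in 0 of 3. The other members were lower in 1 or 2 of 3. How many of all genes had 3 of 3 or 0 of 3 was not counted, so nothing is drawn from these pairs. With the replicate block the Nfkbiz difference was -0.60 (CI -1.12 to -0.07, unadjusted p = 0.0287, adjusted p = 0.864), and without hemin replicate 3 and with no block it was -0.38. Nfkbia differed by -0.42 (CI -1.18 to 0.35) and Tnfaip3 by -0.10 (CI -0.99 to 0.79), intervals wide enough to hold both a fall and a rise. With the replicate block Nfkbia was -0.40 (CI -1.09 to 0.30) and Tnfaip3 -0.20 (CI -1.09 to 0.70). Bcl3 had 3 counts in all with hemin+IL-10 and 15 with hemin, without overlap between the groups. This rests on 3 counts in hemin replicate 3 against 2 in hemin+IL-10 replicate 3. Among tested genes, which leave out Bcl3, 5.08% were lower without overlap. In the fit with no filter the Bcl3 difference was -2.13 (unadjusted p = 0.0746, adjusted p = 0.994).

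For hemin+IL-10+stattic against hemin+IL-10, the log2 changes ran from -0.56 for Tnfaip3 (CI -1.46 to 0.34) to 0.70 for Nfkbib (CI 0.02 to 1.38, unadjusted p = 0.0446, adjusted p = 0.921). Nfkbib averaged 84.3 ± 34.7 CPM with hemin+IL-10+stattic and 51.9 ± 16.7 CPM with hemin+IL-10 (SD, n = 3 each), and the ranges overlapped. With the replicate block the Nfkbib difference was 0.68 (CI 0.08 to 1.28, unadjusted p = 0.0306, adjusted p = 0.742). Without hemin+IL-10+stattic replicate 3 and with no block the Nfkbib difference was 0.36, that of Tnfaip3 -0.30 and that of Nfkb1 -0.15. Nfkbiz differed by -0.06 (CI -0.64 to 0.52) and Nfkb1 by -0.27 (CI -0.73 to 0.19). Nfkbia differed by -0.29 (CI -1.06 to 0.48), and by -0.00 without hemin+IL-10+stattic replicate 2.

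For hemin+IL-10+stattic against hemin, Nfkb1 was the only member tested whose ranges did not overlap, a pattern of lower values seen in 2.25% of all genes. It averaged 42 ± 7.7 CPM with hemin+IL-10+stattic and 58.9 ± 12.3 CPM with hemin (SD, n = 3 each; log2 -0.49, CI -0.95 to -0.02, unadjusted p = 0.0407, adjusted p = 1); hemin+IL-10+stattic replicate 2 and hemin replicate 2 lay side by side, both printed as 50.5 CPM. Nfkbiz differed by -0.67 (CI -1.25 to -0.10, unadjusted p = 0.026), Nfkbib by 0.72 (CI 0.04 to 1.40, unadjusted p = 0.0394) and Nfkbia by -0.71 (CI -1.47 to 0.06, unadjusted p = 0.0681), each with an adjusted p of 1. Nfkb1, Nfkb2, Nfkbia, Nfkbie and Nfkbiz were lower with hemin+IL-10+stattic in 3 of 3 pairs of same-numbered libraries, and Nfkbib in 0 of 3. The share of all genes with such pairs was not counted. With the replicate block the differences were -0.48 for Nfkb1 (unadjusted p = 0.0503), -0.66 for Nfkbiz (unadjusted p = 0.0186) and -0.73 for Nfkbia (unadjusted p = 0.0415). That of Nfkbib was 0.65 (CI 0.05 to 1.26, unadjusted p = 0.0368), that of Nfkb2 -0.54 (unadjusted p = 0.0728) and that of Nfkbie -0.43 (unadjusted p = 0.222). Each had an adjusted p of 0.906. Without hemin replicate 3 and with no block the differences were -0.30 for Nfkb1 and -0.44 for Nfkbiz. With no block and without hemin+IL-10+stattic replicate 2 it was -0.42 for Nfkbia, and without hemin+IL-10+stattic replicate 3 it was 0.38 for Nfkbib.

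Levels of different genes were compared per transcript length, as FPKM. In vehicle libraries the order of mean levels was Nfkbib at 25.3, Rela at 18.1, Nfkbia at 13.2, Nfkb2 at 7.48, Nfkb1 at 7.09, Relb at 3.01, Nfkbiz at 2.34, Nfkbie at 2.08, Tnfaip3 at 0.517 and Bcl3 at 0.08 FPKM. Neighbours whose vehicle values overlapped were Nfkb2 and Nfkb1, Relb and Nfkbiz, and Nfkbiz and Nfkbie, and the other neighbours lay apart. In hemin libraries Nfkbib was again first at 40.6 FPKM, and Nfkbiz stood second at 29.4 FPKM, above Rela at 19.5 and Nfkbia at 18 FPKM, though these neighbours overlapped. Nfkb1 at 14.4, Nfkb2 at 10.7 and Relb at 9.17 FPKM followed with overlapping values. Tnfaip3 at 2.91 and Nfkbie at 2.68 FPKM lay below Relb, and Bcl3 at 0.303 FPKM lay below both.

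**Figure D4:**
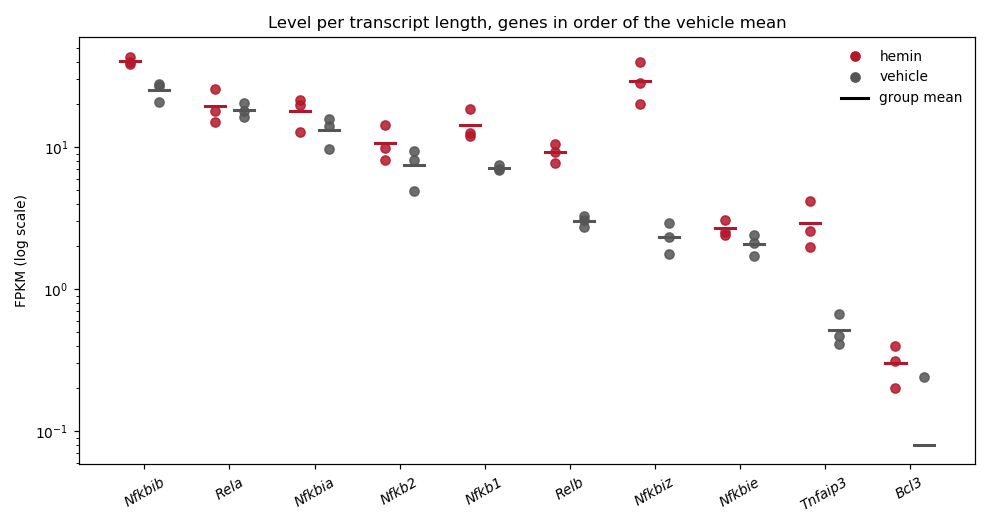
FPKM of the 10 members in hemin and vehicle libraries, on a log axis, with genes in the order of the vehicle mean. Points are libraries and bars are group means (n = 3); Bcl3 was at 0 in 2 vehicle libraries, which a log axis cannot show. Nfkbiz moves from seventh place with vehicle to second with hemin.

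Nfkbiz, which encodes a nuclear IkB protein, and Nfkbia, which encodes IkBα, changed order by mean FPKM. They stood at places 7 and 3 with vehicle and at places 2 and 4 with hemin, where their values overlapped. The ratio of Nfkbiz to Nfkbia FPKM was 0.944, 2.21 and 2.02 in hemin libraries, 1.11, 1.09 and 2.43 in hemin+IL-10 libraries and 1.01, 2.88 and 1.84 in hemin+IL-10+stattic libraries, against 0.148, 0.209 and 0.181 in vehicle libraries. Nfkbiz was above Nfkbia in 8 of the 9 libraries with hemin and below it in all 3 vehicle libraries. In hemin+IL-10 libraries Rela at 22.1 FPKM stood above Nfkbiz at 18.8 FPKM with overlapping values, and in hemin+IL-10+stattic libraries Rela at 21.7 FPKM lay apart from Nfkbiz at 16.6 FPKM.

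Over the 12 libraries, likeness between genes was measured as Pearson's r of log2(CPM + 1). It is a description only, because 9 libraries with hemin and 3 vehicle libraries form separate groups and any gene that separates them scores high. Nfkbiz was most like Nr4a2, Junb and Fos, each at an r of 0.98. Tnfaip3 was most like Tmem41b and Dnd1 at 0.96 and Casz1 at 0.95. Nfkbia was most like Nfkb2 at 0.94, then Il11ra1 at 0.91 and Gulp1 at 0.88. Nfkbia and Nfkb2 were both highest in hemin replicate 1 and lowest in hemin+IL-10+stattic replicate 2, whereas the r of Nfkbia with Nfkbiz was 0.22. Bcl3 was below the filter and has no such value.

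Genes that act with the members were taken by role, and their counts stand beside 11.7% of all genes called higher with hemin, 9.15% called lower and an all-gene median of 0.03. A gene near 0 counts with vehicle passes the count filter only through libraries with hemin and can hardly be called lower. List genes low in every group were not tested, so counts that hold such genes lean to higher calls. Of 7 tested ligand genes, 5 were called higher with hemin than with vehicle (Tnf, Ltb, Il33, Tnfsf11 and Tnfsf13b) and none lower, at a median log2 change of 3.06, which is also the median with Tnf and Tnfsf11, at 0 counts in vehicle, set at a floor of 3 counts over the group. Ltb had 1 count over the vehicle libraries, so Tnf, Tnfsf11 and Ltb passed the filter only through libraries with hemin. Lta, Il1a and Il1b were below the filter and not tested. Among the called ligands, Il33, an alarmin of the IL-1 family, had 9.89 ± 1.98 CPM with hemin and 1.76 ± 1.25 CPM with vehicle (SD, n = 3 each), and Tnf averaged 1.84 ± 1.84 CPM with hemin. Of 13 receptor genes, 3 were called higher (Tnfrsf1b, Cd40 and Tnfrsf12a) and none lower, with a median of 1.09. Cd40 was at 0 counts in vehicle and also passed the filter only through libraries with hemin. Tnfrsf1b, at 29 counts over the vehicle libraries, needed libraries with hemin to pass as well. Tnfrsf12a, the receptor for TWEAK, had 213 ± 54.5 CPM with hemin and 32.5 ± 18.6 CPM with vehicle (log2 2.72, adjusted p = 0.0019). Without vehicle replicate 1 or vehicle replicate 3 the ligand count was 3.

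Of 25 tested kinase and adaptor genes, 5 were called higher (Ikbke, Tbk1, Map3k14, Traf5 and Bcl10) and 2 lower (Map3k7 and Tab1), at a median of 0.20, beside 11.7% higher and 9.15% lower over all genes, so that the lower count is at the background. Map3k14 encodes NIK, the kinase that starts the non-canonical pathway in which Relb and Nfkb2 act. It had 33.2, 38.4 and 40.8 CPM in hemin libraries, 32.4, 31.2 and 29.3 CPM in hemin+IL-10 libraries and 32.3, 20.7 and 36.7 CPM in hemin+IL-10+stattic libraries, against 6.87, 10.3 and 7.43 CPM in vehicle libraries. No library with hemin overlapped vehicle, and the log2 change with hemin was 2.19 (SE 0.26, adjusted p = 0.000447), with 1.91 for hemin+IL-10 and 1.86 for hemin+IL-10+stattic. Tab1, an adaptor of the TAK1 kinase that Map3k7 encodes, was at 16.7 ± 3.73 CPM with hemin and 37.8 ± 3.58 CPM with vehicle (log2 -1.17, adjusted p = 0.0109). Leaving out hemin replicate 2 or any single vehicle library cut the 5 higher calls to 3. The count of 2 lower was 0 without hemin replicate 2, 1 without hemin replicate 1 or any single vehicle library, 4 without hemin+IL-10+stattic replicate 1 and 5 without hemin+IL-10+stattic replicate 3.

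Of the 9 other Rel, IkB and nuclear regulator genes, 4 were called higher with hemin (Rel, Nfkbid, Nfkbil1 and Nkiras1) and 1 lower (Nkap), at a median of 0.62, beside 11.7% higher and 9.15% lower over all genes. Rel encodes c-Rel, the fifth NF-kB subunit, and had 11.2, 17.5 and 50.9 CPM in hemin libraries, 15, 13.1 and 24.1 CPM in hemin+IL-10 libraries and 10.5, 18.3 and 12.2 CPM in hemin+IL-10+stattic libraries, against 5.66, 6.76 and 5.43 CPM in vehicle libraries. All 9 libraries with hemin lay above vehicle, and hemin replicate 3 stood apart from the rest. The log2 change was 2.15 with hemin (SE 0.50, adjusted p = 0.0121), 1.55 with hemin+IL-10 (adjusted p = 0.044) and 1.20 with hemin+IL-10+stattic (adjusted p = 0.093). Without vehicle replicate 1 the Rel call with hemin was lost (adjusted p = 0.0503), and the call with hemin+IL-10 held in 5 of the 12 fits that left out 1 library (adjusted p up to 0.124). With hemin, over those fits, the change ran from 1.27 to 2.52. Nfkbid, which encodes another nuclear IkB protein, stayed low, at 1.28 ± 0.427 CPM with hemin and 0.217 ± 0.0498 CPM with vehicle. At 7 counts over the vehicle libraries, Nfkbid passed the filter only through libraries with hemin. The list count of 4 higher was 1 without vehicle replicate 1 or hemin replicate 2 and 2 without vehicle replicate 3, and Nkap lost its call without any single hemin or vehicle library and without hemin+IL-10 replicate 2.

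Of 12 other negative regulators tested, Irak3 was called higher with hemin and Otud7b lower, at a median of 0.35, counts near the 11.7% higher and 9.15% lower of all genes. Otud7b, which encodes the deubiquitinase Cezanne, had 44 ± 6.06 CPM with hemin and 99.2 ± 15.2 CPM with vehicle (SD, n = 3 each; log2 -1.17, adjusted p = 0.0109), and was not called without vehicle replicate 1. Irak3 rested on 27 counts with hemin and 3 with vehicle, and so passed the filter only through libraries with hemin. Fits that left out hemin replicate 2 or vehicle replicate 2 or 3 did not call Irak3. The count of 1 higher rose to 3 without hemin replicate 1 or hemin+IL-10+stattic replicate 3, and to 2 without hemin+IL-10 replicate 3, hemin+IL-10+stattic replicate 1 or hemin+IL-10+stattic replicate 2. Tnip2, a partner of A20, was at 16 ± 4.43 CPM with hemin and 7.8 ± 2.28 CPM with vehicle and was not called (log2 1.04, adjusted p = 0.0553).

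Of 19 tested inflammatory target genes, 12 were called higher with hemin and none lower, at a median of 3.75, or 3.49 with the 3 genes at 0 counts in vehicle set at the floor, beside 11.7% of all genes called higher. Those 3, Il6, Cxcl1 and Cxcl2, passed the count filter only through libraries with hemin and could not be called lower. Cxcl10 and Ptgs2, at 24 and 25 counts over the vehicle libraries, also needed libraries with hemin to pass and could hardly be called lower. Ccl20, Nos2, Csf2, Cd83 and Il23a were below the filter and not tested, so the count leans to higher calls. Gadd45b had 86.3 ± 33.9 CPM with hemin and 1.83 ± 0.866 CPM with vehicle (SD, n = 3 each). Ptgs2, the inducible cyclooxygenase gene, had 136 ± 79.3 CPM with hemin and 0.769 ± 0.517 CPM with vehicle. The chemokine gene Cxcl10 had 27.5 ± 3.48 CPM with hemin and 0.738 ± 0.559 CPM with vehicle. The count was 9 to 12 over the 12 fits that left out 1 library. Of the same 19 genes, 12 were called higher with hemin+IL-10 (12.1% of all genes) and 11 with hemin+IL-10+stattic (14.7% of all genes). Leaving out vehicle replicate 1 cut the hemin+IL-10 count to 7, leaving out vehicle replicate 3 cut it to 6, and the hemin+IL-10+stattic count was 6 without any single vehicle library. For hemin+IL-10 against hemin, Cxcl10 was at 10.1 ± 3.13 CPM with hemin+IL-10 and 27.5 ± 3.48 CPM with hemin, which was not called (log2 -1.44, unadjusted p = 0.0142, adjusted p = 0.999).

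Markers of other cell types moved with some of these groups. The 18 microglia and macrophage markers, all of them listed in each group, summed to 308, 140 and 101 CPM in hemin libraries, 106, 69.4 and 50 CPM in hemin+IL-10 libraries and 136, 285 and 160 CPM in hemin+IL-10+stattic libraries, against 64.4, 70.6 and 30.9 CPM in vehicle libraries. Of 17 tested, 7 were called higher with hemin, 1 with hemin+IL-10 and 10 with hemin+IL-10+stattic than with vehicle, beside 11.7%, 12.1% and 14.7% of all genes in these comparisons. The count of 7 was 2 without vehicle replicate 2 or 3 and 3 without hemin replicate 1. The single call with hemin+IL-10 was lost when hemin+IL-10 replicate 1 or vehicle replicate 1 or 3 was left out. The count of 10 was 3 to 4 without any single vehicle library, 3 without hemin+IL-10+stattic replicate 2 and 6 without hemin+IL-10+stattic replicate 3. The 9 endothelial, mural and fibroblast markers summed to 64.9 to 200 CPM with hemin, 29 to 65.4 CPM with hemin+IL-10 and 51.7 to 74.9 CPM with hemin+IL-10+stattic, against 7.33 to 30.1 CPM with vehicle. Of 8 tested, 4, 2 and 3 were called higher in these groups and none lower, beside the same 11.7%, 12.1% and 14.7%. The 7 neuron markers summed to 829 to 1126 CPM with hemin, 713 to 1114 CPM with hemin+IL-10 and 660 to 1087 CPM with hemin+IL-10+stattic, against 845 to 1089 CPM with vehicle. Though these sums overlapped, 2 of the 7 were called higher in each comparison with vehicle and none lower, beside the same shares. The 7 astrocyte markers summed to 1751 to 2478 CPM with hemin, 807 to 2166 CPM with hemin+IL-10 and 957 to 3611 CPM with hemin+IL-10+stattic, against 2134 to 5817 CPM with vehicle. In each comparison with vehicle 1 of the 7 was called lower and none higher, where 9.15%, 8.81% and 10.2% of all genes were called lower. The part of these cells in the ligand, receptor, target and member results was not tested.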

How the data were processed

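RNA was measured in 12 libraries of mouse oligodendrocyte progenitor cells, 3 per group. Per the labels' protocols, strand-marked (dUTP) libraries were sequenced as DNA nanoballs. The deposited tables give for each gene the expected count that RSEM estimates, the FPKM value and the transcript length, per the file headers. The submitters' processing notes name CASAVA, HISAT, StringTie, Bowtie, Bowtie2, TopHat, Cufflinks and RSEM, with no version or role. The genome build, and whether counting used strand, are not given in the sources used here. Reads of overlapping genes therefore cannot be told apart (among the members Nfkb1, Nfkb2, Nfkbib and Bcl3).

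Expected counts were rounded and tested with edgeR 4.0.16 (R 4.3.3): TMM scaling, filterByExpr, robust quasi-likelihood fit over the 4 groups, Benjamini-Hochberg adjustment over 13967 genes, threshold 0.05. The deposited FPKM values were used to compare levels between genes. Alternatives were DESeq2 1.42.0, limma 3.58.1 on log2(FPKM + 1) and log2(FPKM + 0.1) for genes with a mean FPKM of at least 0.5, other scalings, no filter, a length correction, a replicate block, and each library left out in turn. Scripts were tested on simulated data.

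All 10 members were described. Up to 4 genes per pathway list were eligible to be named, by the smallest adjusted p in hemin against vehicle, and list members called are named in the counts. The members and lists were chosen with earlier results of these data known. The labels do not say whether same-numbered replicates were paired. The rule for giving blocked values was that their deviations from group means correlated at an r over 0.1 in all 3 pairs. Such a correlation does not establish pairing. This held in hemin+IL-10 against hemin (r = 0.39, 0.17 and 0.63) and in hemin+IL-10+stattic against hemin (r = 0.35, 0.41 and 0.15). The other 4 comparisons missed the rule in at least 1 pair. Their r was 0.69, -0.07 and 0.49 in hemin+IL-10+stattic against hemin+IL-10, and 0.05 to 0.39 against vehicle. The values given come from the fit with no block. For tested members whose difference is given by name, blocked values stand beside them where the rule was met. They are also given for Nfkbib with hemin+IL-10+stattic against hemin+IL-10. Depth limits precision most for Bcl3, and intervals on single counts are not given.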

Additional observations from a re-analysis of the deposited data

How the results depend on the processing

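With 1 library left out in turn, or under the other alternatives, Nfkb1, Relb, Nfkbiz and Tnfaip3 were called higher with hemin than with vehicle in every fit. The members called numbered 4 to 5 with hemin, 3 to 5 with hemin+IL-10 and 4 to 5 with hemin+IL-10+stattic over the fits without 1 library, and 3 with hemin+IL-10+stattic by limma on log2(FPKM + 1), where Nfkb1 (adjusted p = 0.301) and Tnfaip3 (adjusted p = 0.0648) lost the call. The replicate block gave 4, 4 and 5 members called against vehicle and 0 in the comparisons among hemin groups, and so changed no member count; Nfkbib with hemin+IL-10 against hemin was -0.03 with the replicate block.

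Changes of sign were seen only in members that were not called in the comparison concerned. With hemin against vehicle, Rela was -0.06 with the length correction, -0.10 with block and length correction, -0.05 without the 2 libraries of steepest length trend, and -0.04 to 0.41 without 1 library. With hemin+IL-10 against vehicle, Nfkb2 was -0.02 to 0.39 without 1 library, and Nfkbia -0.01 to 0.34, -0.00 by both limma fits, -0.21 with the length correction and -0.20 with block and length correction. With hemin+IL-10+stattic against vehicle, Nfkb2 was -0.22 with library totals, -0.02 with no filter, -0.19 and -0.22 by limma with pseudocounts 1 and 0.1, -0.05 with block and length correction, -0.04 with the length correction, -0.03 without the 2 libraries and -0.22 to 0.26 without 1 library. Nfkbie was -0.18, -0.14, -0.20, -0.32, -0.29 and -0.16 under those settings other than no filter, in that order, and -0.15 to 0.23 without 1 library, and Nfkbia -0.44 to 0.14. With hemin+IL-10 against hemin, Nfkbib was -0.06 by both limma fits and -0.13 to 0.27 without 1 library, and Tnfaip3 -0.34 to 0.21. In that comparison Relb was 0.06 and Nfkbie 0.07 without hemin+IL-10 replicate 1, and -0.13 and -0.19 in the main fit. Nfkbiz was -0.19 to 0.10 for hemin+IL-10+stattic against hemin+IL-10. There Relb, 0.13 in the main fit, was -0.22 without hemin+IL-10+stattic replicate 3. Rela, 0.07 in the main fit, was -0.12 without hemin+IL-10+stattic replicate 1. Nfkb2, -0.16 in the main fit, was 0.08 without hemin+IL-10+stattic replicate 2. The cause was not tested.

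Over all genes, the calls with hemin against vehicle (2917, of them 1639 higher and 1278 lower) ranged from 2659 to 5567, and from 1329 to 4164 without 1 library. With library totals they were 1395 higher and 1593 lower, and with the length correction 1532 and 2531. For hemin+IL-10 the calls were 1696 higher and 1231 lower, or 1317 and 1665 with library totals, and for hemin+IL-10+stattic 2048 and 1424, or 1414 and 2208. The median of all genes moved to -0.07 with hemin, -0.13 with hemin+IL-10 and -0.14 with hemin+IL-10+stattic under library totals, and to -0.19, -0.16 and -0.11 with the length correction. Depth limits what can be said of Bcl3.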
